A study of Sordaria macrospora with 14 samples.

Results

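The comparison described here is that of Δspt3 mycelium with wild-type mycelium of the ascomycete Sordaria macrospora, a self-fertile mould grown as a model of fruiting body formation. It rests on 4 of the 14 RNA-seq libraries of the study, made from total RNA, 2 biological replicates of the Δspt3 deletion strain and 2 of the wild type. Both strains were grown for 6 days at 25 °C as sexually developing mycelium in liquid corn meal medium. The libraries used for context were mycelium and perithecia (the flask-shaped fruiting bodies) of the deletion strains Δasm2 and ΔSMAC_03952, and wild-type perithecia, with 2 replicates each. Perithecia were scraped from ethanol-fixed cultures on solid medium, so tissue and culture form go together in every tissue comparison. The labels do not say how many isolates each deletion strain stands for. Perithecia of Δspt3 were not analysed here. All 9869 gene models that have a first transcript in the table were eligible, and 9499 were tested.

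In budding yeast, Spt3 is a subunit of SAGA, a large coactivator complex that is recruited to promoters by transcription factors. SAGA acetylates and deubiquitinates histones, and Spt3 belongs to the part of the complex that contacts the TATA-binding protein and helps to place it on the promoter. Genes that are regulated by nutrients or stress are classically described as more dependent on SAGA in yeast than genes that are expressed steadily. These are textbook statements about yeast, given as background.

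The total count was 16369408 and 14038966 in the Δspt3 libraries, against 24029990 and 19792141 in the wild-type libraries. Levels are given as CPM (counts-per-million, with library sizes scaled by TMM), and as CPM per kb where genes are compared with each other. The Spearman correlation over genes between replicates was 0.967 in Δspt3 and 0.982 in the wild type. The Δspt3 libraries stood apart from the other 12 on the first principal component, at 169.7 and 158.3, against -52.0 to 9.44. The identifier of the deleted gene is not in the table or the annotation used here, so the deletion itself was not checked in the counts, and no marker genes were at hand to check the tissue. In RNA from whole cultures, fewer cells of a type and less RNA per cell cannot be told apart.

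Most tested genes differed between mycelium without spt3 and wild-type mycelium. Of 9499 genes tested, 5632 (59.3%) passed the test, 2761 of them higher (29.1%) and 2871 lower (30.2%) (edgeR quasi-likelihood test, adjusted p under 0.05). With TMM scaling the numbers in each direction were similar (2251 higher and 3107 lower with no scaling factors), but the sizes were not. For the lower genes the log2 fold changes centred on a median of -2.11, and for the higher genes on 1.31. A change of at least 4-fold was seen for 626 higher and 1523 lower genes, and one of at least 16-fold for 112 higher (1.18% of those tested) and 671 lower genes (7.06%). Among the 671 were 185 genes with 0 counts in both Δspt3 libraries, whose fitted fold change is no bound. With these at the limit that 3 counts over the group would give, 580 genes were lower by 16-fold or more and 83 by 256-fold or more, against 10 higher by 256-fold or more, and the median of the lower genes was -2.08. The replicates of the groups did not overlap for 5621 of the 5632 genes called. Passing the test itself favours such a separation, and it was not counted over all genes tested, so this is a description only.

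A further 3867 genes were not called, and these were of different kinds. For 1946 of them the 95% interval of the fold change lay within 2-fold in either direction. For the other 1921 the interval reached past 2-fold, so that a change of that size was not excluded for them. The median log2 fold change of all genes tested was -0.01. Counted on library totals without scaling factors it was -0.19, and changes are therefore given relative to the bulk of genes. The authors' deposited table lists an adjusted p below 0.05 for 5682 genes in this comparison, and 5489 of these were also called here, each in the same direction.

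**Figure D1:**
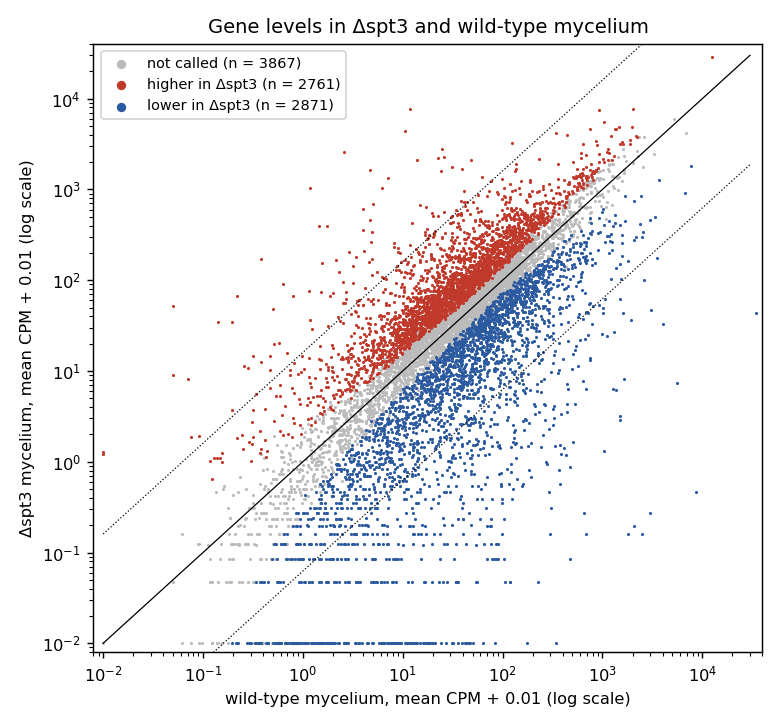
Mean level of each of 9499 genes in Δspt3 mycelium (vertical axis) and wild-type mycelium (horizontal axis), in CPM + 0.01 on log scales, coloured by the call of the edgeR test. The solid line marks equal levels and the dotted lines a 16-fold difference; 671 genes called lower and 112 called higher changed by 16-fold or more, and the row of points along the bottom holds genes with 0 counts in Δspt3.

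The 4 genes with the largest fitted changes, 2 in each direction, were followed through all strains. SMAC_00556, a gene model of 330 bases, stood at 2785 and 2377 CPM in the Δspt3 libraries, against 3.52 and 1.67 CPM in the wild-type libraries. It was 980.6-fold higher in Δspt3 (log2 fold change 9.94 with SE 0.66, edgeR adjusted p = 1.72e-07). Without wild-type replicate 1 the log2 fold change was 10.54. Its highest value in the other deletion strains was 22.0 CPM, in ΔSMAC_03952 mycelium replicate 2. SMAC_08681, of 354 bases, stood at 21.6 and 82.5 CPM in Δspt3, against 0.0809 and 0 CPM in the wild type. Its counts were 285 and 1104 in Δspt3, against 2 and 0 in the wild type (edgeR adjusted p = 5.38e-06). The ratio per scaled library size was 1149, and counting error alone gives it an exact 95% range from 317.4 up to 9495. Its fitted log2 fold change of 9.91 depended on single libraries, at 8.65 without Δspt3 replicate 2, 10.54 without Δspt3 replicate 1, 9.11 without wild-type replicate 2 and 12.42 without wild-type replicate 1, where 0 wild-type counts are left. In the 10 remaining libraries it did not pass 0.382 CPM, the value of wild-type perithecia replicate 1.

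Among the lower genes, SMAC_12709 had 0 counts in both Δspt3 libraries, against 337.4 and 346.3 CPM in the wild-type libraries. If 3 counts are allowed for the Δspt3 libraries together, it was at least 3020.4-fold lower (edgeR adjusted p = 8.98e-08). It was present in every library of the other strains, between 21.3 CPM in wild-type perithecia and 217.1 CPM in ΔSMAC_03952 mycelium. SMAC_07760 had 0 counts in both Δspt3 libraries as well, against 175.3 and 176.6 CPM in the wild-type libraries, and was at least 1556.4-fold lower (edgeR adjusted p = 2.71e-07). This gene was most abundant in wild-type perithecia, at 1502 and 990.5 CPM, and lowest outside Δspt3 in ΔSMAC_03952 perithecia, at 27.5 and 30.3 CPM. The 4 genes also differed past the threshold between Δspt3 mycelium and the mean of Δasm2 and ΔSMAC_03952 mycelium, with edgeR adjusted p of 2.26e-08 for SMAC_00556, 5.78e-07 for SMAC_08681, 1.08e-07 for SMAC_12709 and 4.35e-07 for SMAC_07760. That test uses the same Δspt3 libraries on which the 4 genes were picked, so it is no independent support. SMAC_03952, the gene deleted in another strain of the study, stood at 107.9 and 144.7 CPM in Δspt3, against 239.6 and 237.4 CPM in the wild type (log2 fold change -0.92 with SE 0.22, edgeR adjusted p = 0.00316).

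The most abundant transcripts were compared by rank. Of the 100 gene models with the highest level per kb in Δspt3 mycelium, 58 were also among the 100 highest in wild-type mycelium; the replicates of each strain shared 89 of 100. Of the wild-type 100, 23 were called higher and 35 lower in Δspt3, beside 29.1% and 30.2% of all genes, and 16 were lower by 16-fold or more, beside 7.06% of all. Of the Δspt3 100, 59 were called higher and 2 lower. Each 100 was picked for its level in libraries that also enter the test, which favours lower calls in the first and higher calls in the second, so these counts are a description only. The genes in the next sentences were chosen for their rank after their values were seen.

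SMAC_12697, of 1135 bases, was the most abundant gene model of wild-type mycelium per kb and held 4.99% and 2.01% of the counts of the wild-type libraries. It stood at 38.3 and 48.7 CPM in Δspt3, against 48512 and 20698 CPM in the wild type, so that its rank was 2833 in Δspt3 (log2 fold change -9.63 with SE 0.64, edgeR adjusted p = 1.7e-07; log2 fold change -8.94 without wild-type replicate 1). In the 10 remaining libraries it lay between 472.3 CPM in ΔSMAC_03952 perithecia and 7916 CPM in ΔSMAC_03952 mycelium, below the wild-type mycelium and above Δspt3. SMAC_00127, at rank 4 in wild-type mycelium, stood at 0.0759 and 0.822 CPM in Δspt3, against 7903 and 9230 CPM in the wild type (log2 fold change -14.18 with SE 0.91, edgeR adjusted p = 1.35e-07). The log2 fold change was -13.37 without Δspt3 replicate 1 and -16.62 without Δspt3 replicate 2. The level of SMAC_00127 was at least 1875 CPM in each of the other 10 libraries. Both lay among the leading transcripts of wild-type mycelium and far down the order in Δspt3.

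In the other direction, SMAC_07008, of 261 bases, was the most abundant gene model per kb in Δspt3. It stood at 6244 and 4824 CPM in Δspt3, against 988.9 and 1083 CPM in the wild type, where its rank was already 10 (log2 fold change 2.42 with SE 0.35, edgeR adjusted p = 8.59e-05; log2 fold change 3.23 with length trends removed). SMAC_05446, at rank 2, stood at 33149 and 23949 CPM in Δspt3, against 10129 and 14855 CPM in the wild type (log2 fold change 1.19, edgeR adjusted p = 0.0172); this call ended without Δspt3 replicate 1 (edgeR adjusted p = 0.114), without wild-type replicate 1 (0.161) and when the other 10 libraries were kept out of the model (0.0953). SMAC_09497, at rank 3 in Δspt3, stood at 8332 and 7068 CPM there, against 5.30 and 18.2 CPM in the wild type, where its rank was 4967 (log2 fold change 9.36 with SE 1.15, edgeR adjusted p = 2.27e-05). Without wild-type replicate 1 its log2 fold change was 8.67, and without wild-type replicate 2 it was 10.41. In ΔSMAC_03952 mycelium this gene varied between 254.1 and 36.2 CPM, and in all 6 perithecium libraries it was at or below 2.14 CPM. SMAC_01295, at rank 4 in Δspt3 and rank 5 in the wild type, was not called (edgeR adjusted p = 0.827); its Δspt3 libraries differed widely, at 2291 and 9698 CPM, against 3480 and 6976 CPM in the wild type.

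The genes with changes of 16-fold or more were also read in each library as a share of its counts. The 671 lower genes held 0.147% and 0.186% of the counts in Δspt3, against 16.2% and 12.02% in wild-type mycelium. Without SMAC_12697 the shares were 0.144% and 0.181% in Δspt3, against 11.2% and 10.0% in the wild type. In the 10 libraries of the remaining groups the 671 genes held between 8.60% and 15.9%. These genes were picked for their loss in Δspt3, and no set was picked for its loss in another group. A summed share rests mostly on abundant genes. The median level of the 671 was 22.4 and 17.6 CPM in wild-type mycelium and 0.15 CPM in each Δspt3 library. In the other 10 libraries it lay between these, from 7.61 to 15.6 CPM, both in ΔSMAC_03952 mycelium. The 112 higher genes held 5.63% and 5.20% of the counts in Δspt3, against 0.131% and 0.126% in wild-type mycelium, and at most 0.237% elsewhere. The genes were chosen on the Δspt3 and wild-type mycelium libraries, so only the values of the other groups are independent of that choice. In the test of Δspt3 against the mean of the other deletion strains in mycelium, which uses the same Δspt3 libraries, 646 of the 671 were lower (28.5% of all genes were) and 111 of the 112 were higher (28.0% of all genes). Against wild-type mycelium, whose libraries are shared, the 671 genes gave 22 higher and 78 lower in Δasm2, where 3.45% and 2.61% of all genes were called. In ΔSMAC_03952 they gave 26 higher and 121 lower, where 4.13% and 6.64% of all genes were called.

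**Figure D2:**
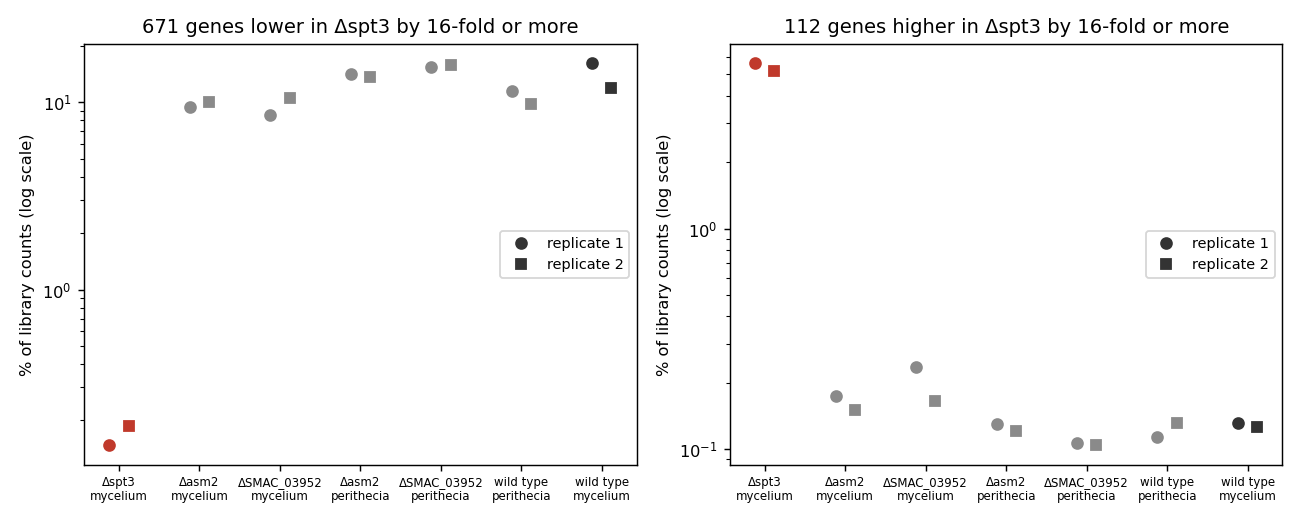
Share of each library's counts held by the 671 genes lowered by 16-fold or more in Δspt3 mycelium (left) and by the 112 genes raised by 16-fold or more (right), in percent on log scales, 1 point per library. The Δspt3 libraries lie at 0.147% and 0.186% on the left and at 5.63% and 5.20% on the right; the libraries of the other 6 groups lie together at the opposite end.

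Some genes with a clear signal in the wild type had almost none in Δspt3. Wild-type mycelium had 7379 genes with a mean of at least 10 CPM; 193 of these were under 1 CPM in both Δspt3 libraries. Of the 193, 161 reached 1 CPM in each of the 12 libraries of the other groups, and 1 was under 1 CPM in all 6 perithecium libraries. The same was not counted over all 7379 genes, so neither count can be called particular to the 193. Among 2113 genes with a wild-type mean of at least 100 CPM, 30 were under 1 CPM in both Δspt3 libraries. Genes that appeared were fewer in number, but they came from a much smaller set. The counts therefore do not say that appearance was the rarer event among the genes open to it. Wild-type mycelium had 395 genes with a mean under 1 CPM, of which 20 averaged 10 CPM or more in Δspt3, 16 of them in both libraries. None of the 20 reached 10 CPM in any of the 10 libraries of Δasm2, ΔSMAC_03952 and wild-type perithecia, and 7 were under 1 CPM in all 12 libraries outside Δspt3. How many of all 395 genes did so was not counted.

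The genes were next sorted by features that the Δspt3 and wild-type mycelium libraries did not supply. How much a gene varied among the 10 other libraries was taken as the SD of its log2 CPM over Δasm2, ΔSMAC_03952 and wild-type perithecia. Among the 2375 least variable genes (SD up to 0.351), 35.7% of genes were higher and 14.4% lower in Δspt3, and 11 genes were lower by 16-fold or more. Among the 2375 most variable genes (SD from 0.722), 19.1% were higher and 52.3% lower, and 462 genes, 19.5%, were lower by 16-fold or more. The median log2 fold change was 0.28 in the least variable and -1.16 in the most variable genes. Thus 462 of the 671 strongly lowered genes were among the 2375 that varied most between the other strains and tissues. The excess of higher genes in the least variable set depended on the scaling. It had 849 higher and 342 lower genes with TMM, 720 and 408 with upper-quartile factors, and 602 and 422 with no scaling factors. The 849 higher genes of the least variable set numbered 547 without wild-type mycelium replicate 1 and 551 without replicate 2.

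The share of lower genes had the same order within both ranges of level examined, while the order of the share of higher genes depended on level. The 2375 least abundant genes were not binned in this way. Among genes of intermediate level per kb, put in 4 bins by SD, 10.9%, 17.1%, 31.2% and 51.6% were lower, with the least variable bin first. In the same bins 38.3%, 38.4%, 27.5% and 20.6% were higher. Within the 2375 most abundant genes, 20.9%, 22.2%, 28.2% and 58.4% were lower. There the share of higher genes was 26.6%, 35.9%, 39.1% and 17.2%, so it was lower in the least variable bin than in the middle bins. With the SD taken over the 4 mycelium libraries of Δasm2 and ΔSMAC_03952 alone, 37.7% of the 2375 least variable genes were higher and 19.0% lower, against 16.3% higher and 49.5% lower among the most variable. Over 9499 genes the SD and the size of the Δspt3 fold change had a Spearman correlation of 0.39; genes share libraries and are not independent of each other.

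Level sorted the genes less than variability did, and length did so for the share of lower genes only. Of the 2375 least abundant genes per kb, 24.2% were higher and 33.1% lower, and of the 2375 most abundant, 29.7% were higher and 32.4% lower. Increases of 16-fold or more were concentrated in genes of low level, with 70 among the least abundant and 2 among the most abundant genes. A gene already at a high level has less room for such a rise, and this was not allowed for. In 4 bins by length, shortest first, 31.8%, 24.5%, 29.3% and 35.3% were lower. In the same bins 28.7%, 38.8%, 30.7% and 18.1% were higher, so the longest genes were least often called higher. Among genes of intermediate level per kb, binned by length, the share of higher genes was 39.6%, 40.5%, 30.6% and 13.9%. Short genes held more of the large changes in both directions. Among the 2376 shortest genes (up to 1241 bases), 52 were higher and 280 lower by 16-fold or more, and among the 2375 longest (from 2753 bases), 7 and 99. Over all genes, log2 fold change and length had a Spearman correlation of -0.06. A fit with length trends removed called 5933 genes, 2919 higher and 3014 lower.

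**Figure D3:**
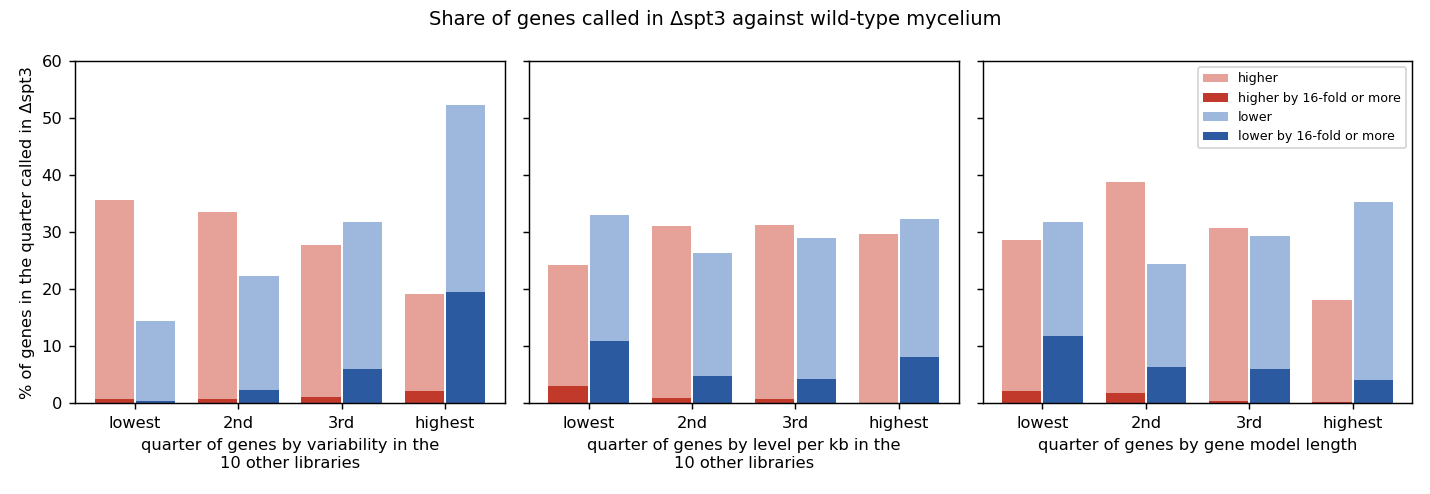
Percent of genes called higher (red) and lower (blue) in Δspt3 against wild-type mycelium, in 4 bins of equal gene number according to variability over the 10 other libraries (SD of log2 CPM, left), level per kb in those libraries (middle) and gene model length (right); the dark part of a bar is the share changed by 16-fold or more. The share of lower genes is 14.4% in the least and 52.3% in the most variable bin, and the share of higher genes is 35.7% and 19.1%.

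How the Δspt3 effect related to fruiting body expression was read from the tissue comparisons within Δasm2 and within ΔSMAC_03952, which share no library with the comparison of Δspt3 and wild type. Of all genes, 12.9% were higher and 13.3% lower in perithecia than in mycelium of Δasm2, and 16.4% and 19.4% in ΔSMAC_03952. In both strains 729 genes were higher in perithecia and 986 lower. Of the 729, 57 (7.82%) were higher and 468 (64.2%) lower in Δspt3 mycelium; their log2 fold changes had the median -1.19. Of the 986, 475 (48.2%) were higher and 230 (23.3%) lower, and the median was 0.60. Without wild-type mycelium replicate 1 the 475 became 316, and without replicate 2 the 57 became 31. Genes called between the tissues in neither strain, 5346 in all, gave 28.8% higher and 25.5% lower. In a test that shares the wild-type libraries, mycelium of both deletion strains also differed from the wild type. Of the 2871 genes lower in Δspt3, 6.3% were lower and 3.34% higher in Δasm2 mycelium (2.61% and 3.45% of all). In ΔSMAC_03952 mycelium 16.1% were lower and 2.06% higher (6.64% and 4.13% of all). Of the 2761 higher genes, 1.41% were lower and 5.11% higher in Δasm2, and 1.81% and 8.69% in ΔSMAC_03952. What this adds to the tissue classes was not tested.

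The direction for the 729 genes held when any one library of the 6 groups involved was left out, with 3.6% to 8.1% higher and 50.1% to 73.6% lower. That for the 986 genes did not hold throughout: without Δasm2 mycelium replicate 1 the class had 529 genes, of which 35.3% were higher and 35.7% lower in Δspt3. Without Δasm2 perithecia replicate 2 it had 499 genes, with 36.5% higher and 33.7% lower. The strongly changed genes were read the same way. Of the 671, 79 (11.8%) were higher and 53 (7.9%) lower in perithecia of both strains, against 7.67% and 10.4% of all genes. Of the 112 strongly raised genes, none was higher and 18 (16.1%) were lower in perithecia of both. The comparison of wild-type perithecia with wild-type mycelium uses the same wild-type mycelium libraries as the Δspt3 comparison. In it, 135 of the 671 genes were higher in perithecia (20.1%, against 14.7% of all) and 234 lower (34.9%, against 13.3%). Of all 2871 genes lower in Δspt3, 17.8% were higher and 22.0% lower in wild-type perithecia. Of all 2761 genes higher in Δspt3, 15.4% were higher and 9.67% lower there. This order is opposite to that found with Δasm2 and ΔSMAC_03952. Shared wild-type libraries can add to it, and the mycelium of the deletion strains also differed from the wild type. How much either contributes was not tested.

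**Figure D4:**
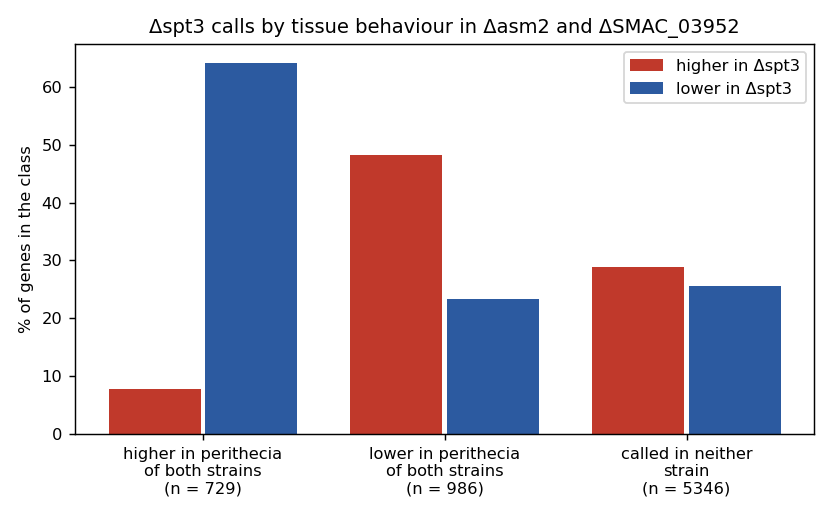
Percent of genes called higher (red) and lower (blue) in Δspt3 mycelium against the wild type, for 729 genes higher in perithecia than in mycelium of both Δasm2 and ΔSMAC_03952, 986 genes lower in perithecia of both, and 5346 genes called in neither. Lower genes make up 64.2% of the first class, 23.3% of the second and 25.5% of the third.

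Genes that lie next to each other tended to change together. Of the tested genes, 9173 were matched to 1 gene each of the RefSeq annotation ASM3387043v1, which was used for gene order only, the build behind the counts being not given in the sources used here. They formed 8517 pairs of direct neighbours. A higher gene had a higher neighbour in 35.6% of cases, against 29.7% of genes higher in these pairs. A lower gene had a lower neighbour in 40.6% of cases, against 29.3% lower. For decreases of 16-fold or more the share was 26.1%, against 7.06% of all genes, and for increases of 16-fold or more it was 10.4%, against 1.18%. The Spearman correlation of the Δspt3 fold changes of neighbours was 0.21, and that of the tissue fold changes was 0.15 in Δasm2 and 0.11 in ΔSMAC_03952. The handling of strand was not given in the sources used here. Of the 8517 pairs, 8515 have annotated spans that do not overlap, and among these the correlation was 0.21.

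There were 197 runs of 3 or more neighbours that were all higher in Δspt3 and 227 that were all lower, the longest with 7 and 12 genes. With 29.1% of all genes higher and 30.2% lower, such runs also arise where calls are placed independently. How many would do so was not worked out, so the run counts are a description only. At 16-fold or more there were 2 runs of 3 higher genes and 24 runs of 3 or more lower genes, which held 91 genes. The longest run of such lower genes had 7 genes, SMAC_09010 to SMAC_09004, and was described for its length after its values were seen. All 7 were lower, 2 of them with 0 counts in both Δspt3 libraries.

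The first gene of this run, SMAC_09010, had 5 and 2 counts in the Δspt3 libraries, against 74166 and 57028 counts in the wild-type libraries (log2 fold change -13.42 with SE 0.63, edgeR adjusted p = 2.18e-08), and its log2 fold change was -14.24 without Δspt3 replicate 1. SMAC_09008 stood at 2.81 and 2.84 CPM in Δspt3, against 166.2 and 155.1 CPM in the wild type (56.7-fold lower, edgeR adjusted p = 3.95e-08). SMAC_09007 was the least reduced, at 1.21 and 0.972 CPM in Δspt3, against 37.2 and 24.7 CPM in the wild type (28.2-fold lower, edgeR adjusted p = 8.93e-07). In the 2 genes with 0 counts in Δspt3, SMAC_09009 and SMAC_09006, the decrease was at least 574.4-fold and at least 742-fold, with 3 counts allowed for both Δspt3 libraries together. SMAC_09005 and SMAC_09004 had 1 count each over both Δspt3 libraries, against 4612 and 5332 counts over the wild-type libraries.

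The same 7 genes were well expressed everywhere else. SMAC_09010 reached 19483 and 18499 CPM in ΔSMAC_03952 perithecia and 14461 and 14022 CPM in Δasm2 perithecia. All 7 were higher in perithecia than in mycelium in Δasm2 and in ΔSMAC_03952, by log2 fold changes of 1.35 to 2.48 and 1.03 to 2.31 (edgeR, largest adjusted p 0.0154 and 0.0406). The identifiers of these genes are consecutive, and no table used here gives them names or products.

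**Figure D5:**
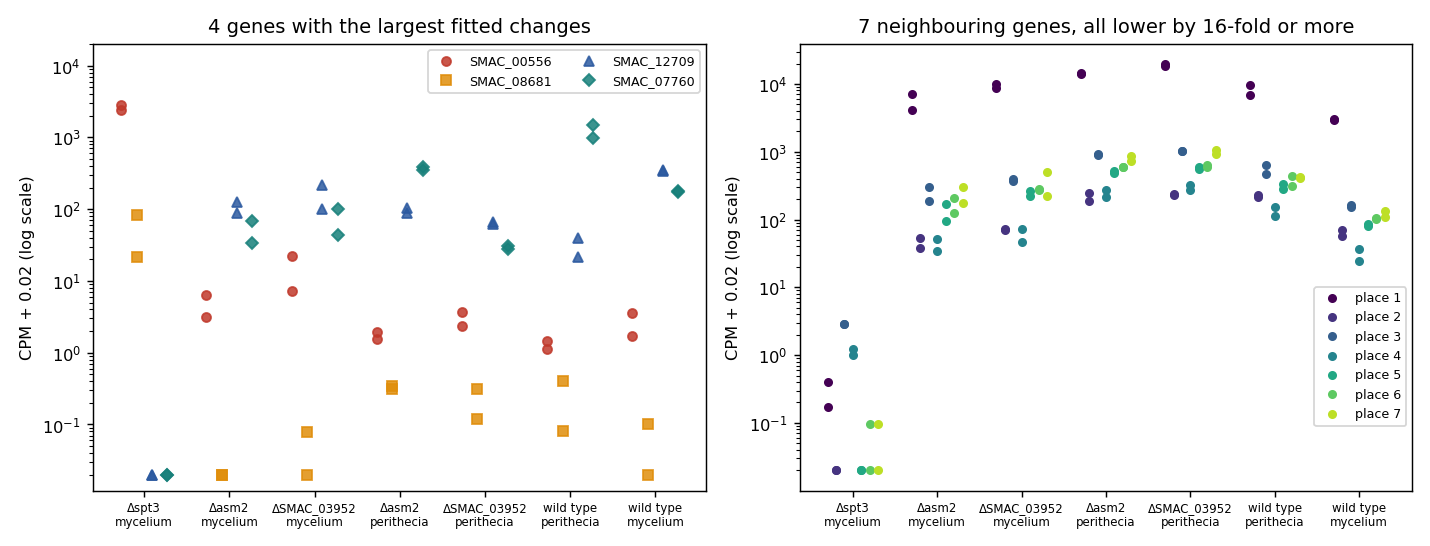
CPM + 0.02 on a log scale in all 14 libraries for the 4 genes with the largest fitted changes, 2 in each direction (left) and for the 7 genes of the longest run of neighbours lowered by 16-fold or more, SMAC_09010 (place 1) to SMAC_09004 (place 7) (right), 1 point per library and gene. In Δspt3 the 7 genes lie at or below 2.84 CPM, and in every other library at or above 24.7 CPM.

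The Δspt3 libraries were less alike than the wild-type ones. Among the genes called, 54 differed by more than 4-fold between the Δspt3 libraries and 13 between the wild-type libraries, on CPM + 0.1. SMAC_08681, at 21.6 and 82.5 CPM, was near that limit. Between 4355 and 5503 genes were called when 1 of the 4 libraries was left out, and decreases of 16-fold or more then numbered 643 to 716 and increases 101 to 130.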

How the data were processed

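The deposited table gives raw read counts per gene model for 14 libraries, the gene model length, and the authors' comparisons, per the file headers. For aligner, counter and genome build: not given in the sources used here. The submitters' processing notes name DESeq2 without a version. The labels' extraction text also mentions microdissected RNA; samples were taken as named. The authors' mean normalized signal over all libraries was not used; their deposited log2 fold changes and adjusted p-values (to 2 decimals) were compared and entered no test.

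Of 10014 rows, 145 second transcripts held no count and were dropped. The test was that of edgeR 4.0.16 in R 4.3.3 (filterByExpr, TMM, glmQLFit and glmQLFTest, 1 mean for each of 7 groups over 14 libraries, 7 residual degrees of freedom), with Benjamini-Hochberg adjustment over 9499 genes. The filter left out 370 genes with 0.00468% of the counts. DESeq2 1.42.0, other scalings, filters and left-out libraries were the alternatives.

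The replicates are independent biological ones, per the labels. Members, lists and tests were chosen with earlier results of these data known. The rule for named genes took called genes with replicates that do not overlap and 10 CPM or more in the higher group, by size of change, 2 in each direction where no product name was at hand, plus SMAC_03952; other genes named were chosen after their values were seen. RefSeq matched 9531 gene models and gave 0 symbols other than locus tags. Planned gene lists by product or protein pattern, and promoter motifs, were not run: product names and sequences were not used here. The interval of the count ratio and the floors cover counting error only; the 95% intervals of fold changes come from the fit and include the spread between replicates.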

Additional observations from a re-analysis of the deposited data

How the results depend on the processing

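Of 572 values recomputed under the alternatives, 549 kept their direction and side of the threshold or stayed within 1.5 times. With the replicate number as a block, 5693 genes were called; the numbers share no stated litter, batch or day (correlation of deviations between same-numbered Δspt3 and wild-type libraries -0.211), and the block changed no call of a named gene. DESeq2 called 5762 genes and a fit of only the 4 libraries compared 4913. The share of calls that were higher was 49.0% with TMM, 46.8% with RLE factors, 44.5% with upper-quartile factors and 42.0% with no scaling factors.

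With 1 library left out, genes higher in perithecia of both other strains numbered 259 to 561 for those lower and 16 to 72 for those higher in Δspt3. Genes lower in perithecia of both numbered 182 to 604 for those higher in Δspt3 (316 without wild-type mycelium replicate 1), and 164 to 255 for those lower. The smallest of these counts came from fits without a library of Δasm2 or ΔSMAC_03952, in which the classes themselves held fewer genes. The 2375 least variable genes gave 547 to 783 higher genes (551 without wild-type mycelium replicate 2), against 849 with all libraries. SMAC_01295 had log2 fold changes from -1.19 (without Δspt3 replicate 2) to 0.86 (without Δspt3 replicate 1), with -0.25 without wild-type replicate 1, and was not called in these. SMAC_05446 lost its call without Δspt3 replicate 1 (log2 fold change 0.91) or wild-type replicate 1 (0.89), or with only the 4 libraries compared (1.16). The other named genes kept their call under the scaling, filter, model and DESeq2 alternatives and without any 1 of the 4 libraries compared; they were not recomputed without a Δasm2 or ΔSMAC_03952 library, and SMAC_03952, 1.89-fold lower, is not among the 4400 calls of at least 2-fold. Alternatives planned for gene lists and promoter motifs were not run. With 2 libraries per group, a 2-fold change was not excluded for 1921 genes that were not called.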
